A study of Mus musculus with 30 samples.

Results

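The cell cycle and DNA replication genes were 45 genes given by name that run the division cycle, and 43 of them were measured in both cell lines, each through the transcript cluster of the array that carried its symbol and no other. Tests ran over the 25341 clusters to which the annotation gives a symbol. *Ccne2* was found only on a cluster shared with *Ints8*, and *Ccnb1* on no annotated cluster, so neither has a value here. *Rb1* had 2 clusters of its own, and the one with the higher mean over all arrays was used.

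Expression was measured on Affymetrix mouse gene arrays as log2 signal in 30 samples, in 10 groups of 3. iMOP cells (immortalized multipotent otic progenitors) are a mouse line from the embryonic cochlea, made as 1 clone through transient expression of c-Myc and grown in suspension with bFGF. mESCs are mouse embryonic stem cells of the ES-D3 line, kept with LIF on arrested feeder fibroblasts and then moved to gelatin. In each line the groups were p183AT (Atoh1, the miR-183 family and RFP), pAT (Atoh1 and RFP), p183T (the miR-183 family and RFP), pT (RFP alone) and UT (untransfected). The vectors used an EF-1 alpha promoter, which is active in most cell types. RFP-positive cells were sorted 48 hours after transfection, whereas UT cells were not transfected or sorted. iMOP cells received jetPRIME and were sorted into lysis buffer, and mESCs received Lipofectamine 2000 and were sorted into medium, so reagent, collection and line cannot be told apart. The labels call the replicates distinct biological samples and say no more. Every p-value rests on the spread between such samples, in limma pooled over all groups in the fit and moderated across clusters.

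In the division cycle, D-type cyclins with Cdk4 or Cdk6 and then cyclin E with Cdk2 act on Rb1 and its relatives, which releases E2F factors that drive the genes of the S phase. Orc1, Cdc6 and Cdt1 load the Mcm2-7 helicase onto origins, and Cdc45, Mcm10 and Pcna act when the forks run. Cdc25 phosphatases then remove the inhibitory phosphates that Wee1 puts on Cdk1, and Cdk1 with A- and B-type cyclins takes the cell into mitosis, where Plk1, the Aurora kinases and the spindle checkpoint proteins act. In the inner ear, Atoh1 is the basic helix-loop-helix factor that starts hair cell differentiation, a step that comes with exit from the cycle.

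The vectors were read as labelled. *Atoh1* averaged 6.42 ± 0.02 in iMOP pAT and 5.38 ± 0.18 in iMOP pT on the log2 scale, and 6.01 ± 0.18 in mESC pAT and 5.0 ± 0.21 in mESC pT (SD, 3 arrays each). The hairpins *Mir183*, *Mir96* and *Mir182* were 2.88 to 5.54 log2 units higher in p183T and p183AT cells than in pT cells of the same line. Array medians ran from 4.37 to 4.69. The mean of 10 pluripotency markers was 4.5 to 4.83 on the iMOP arrays and 8.07 to 8.85 on the mESC arrays. Of 11 measured otic progenitor markers, 5 were higher in UT iMOP than in UT mESC cells, from *Jag1* (log2 difference 0.56) to *Dlx5* (5.38), and 6 were lower, from *Sox10* (−0.34) to *Sox2* (−2.06), with a median of −0.34. The mean of 20 fibroblast markers lay between 4.87 and 5.17 on iMOP arrays and between 5.14 and 5.43 on mESC arrays.

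Across all 10 groups the line was the main division among the cell cycle genes. For 28 of the 43 genes, all 15 iMOP arrays lay below all 15 mESC arrays, a pattern found in 19.3% of all tested clusters, and for 0 of them did all iMOP arrays lie above, against 6.31% of all clusters. Of the 13 S-phase genes, which make up the replication machinery, 12 were lower on every iMOP array, with *Cdc45* the exception. Of the 15 G2/M and mitotic genes, 9 were. *Pcna*, the sliding clamp of the replication fork, ranged from 9.01 to 9.77 in iMOP cells and from 11.07 to 11.37 in mESCs. *Ccna2*, the cyclin of S phase and G2, ranged from 9.48 to 10.39 in iMOP cells and from 10.49 to 10.87 in mESCs. *Cdk4*, a kinase of G1, had overlapping ranges, 10.85 to 11.32 in iMOP cells and 10.99 to 11.32 in mESCs. The overlapping genes were *Ccnd2*, *Ccnd3*, *Cdk4*, *Cdk2*, *E2f1*, *E2f2*, *E2f3*, *Rb1*, *Cdc45*, *Cdc25b*, *Cdc25c*, *Aurkb*, *Plk1*, *Top2a* and *Mki67*.

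**Figure D1:**
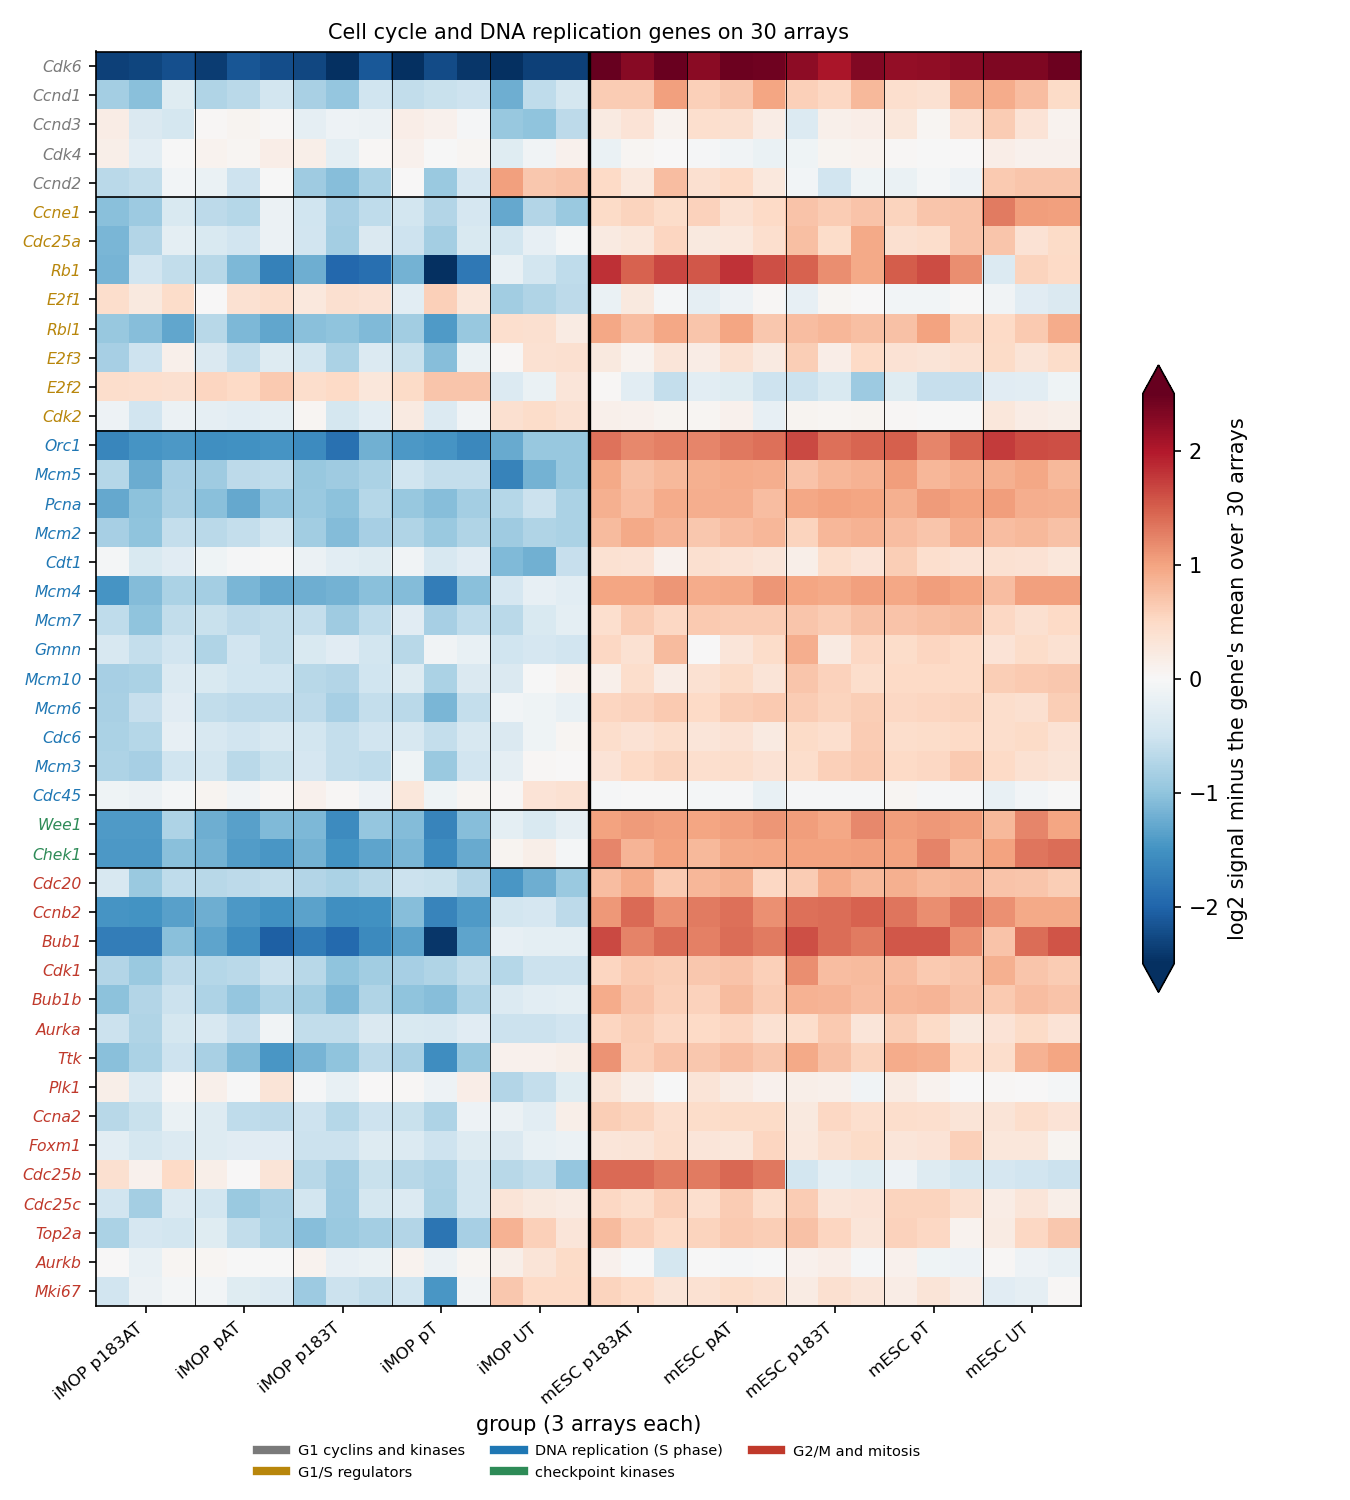
Each row is 1 of the 43 measured genes, grouped by class, and each column 1 of the 30 arrays in 10 groups of 3; color gives the log2 signal minus the gene's mean over the 30 arrays, cut at 2.5 on either side. Most rows are blue on the 15 iMOP arrays and red on the 15 mESC arrays, *Cdc25b* is higher in the pAT and p183AT columns than in the other columns of the same line, and the 3 iMOP UT columns differ from the other iMOP columns.

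The first comparison, UT iMOP cells against UT mESCs, asks how the unmanipulated lines differ. Of the 43 genes, 31 were lower and 2 higher in iMOP cells, whereas 39.2% of all tested clusters were lower and 18.3% higher, 57.5% together (limma, Benjamini-Hochberg adjusted p below 0.05). The 3 arrays of one line did not overlap those of the other for 36 of the genes, beside 63.5% of all clusters. The median log2 fold change was −0.74 over the cell cycle genes and −0.20 over all tested clusters. The S-phase genes had 12 of 13 lower (median −0.91), and the G2/M and mitotic genes 10 of 15 lower and 2 higher (median −0.53). Both checkpoint kinases, *Chek1* and *Wee1*, which hold back Cdk1 while DNA is copied or damaged, were lower. The G1 cyclins and kinases had 3 of 5 lower, and the G1/S regulators 4 of 8. In bulk samples such as these, fewer cells in a phase and less RNA per cell cannot be told apart.

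In the S-phase class, *Orc1*, the large subunit of the origin recognition complex, read 5.14, 5.44 and 5.45 on the UT iMOP arrays and 8.14, 8.03 and 8.0 on the UT mESC arrays. The groups were far apart, and *Orc1* was 6.55-fold lower in iMOP cells (log2 fold change −2.71, SE 0.13, limma adjusted p = 3.7e-08). *Mcm5*, a subunit of the replicative helicase, read 8.39, 8.87 and 9.11 in UT iMOP cells and 10.95, 11.02 and 10.86 in UT mESCs. The 3 iMOP arrays spread more widely but all lay below the mESC arrays (log2 fold change −2.15, SE 0.18, adjusted p = 2e-06). The other helicase subunits differed by less: *Mcm2* by −1.59, *Mcm4* by −1.24, *Mcm7* by −0.91, *Mcm6* by −0.61 and *Mcm3* by −0.46. *Pcna* was 3.08-fold lower, *Cdt1*, a licensing factor, 2.47-fold, and *Gmnn*, its inhibitor geminin, 1.82-fold. *Mcm10* (−0.75) and *Cdc6* (−0.57) were lower too. *Cdc45*, which joins the helicase at firing, read 7.58, 7.89 and 7.92 in UT iMOP cells and 7.36, 7.48 and 7.53 in UT mESCs, a difference of 0.34 that missed the threshold (adjusted p = 0.051).

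In G1, *Cdk6* stood apart. It read 3.0, 3.17 and 3.17 in UT iMOP cells and 7.85, 7.85 and 7.96 in UT mESCs, a log2 fold change of −4.77 (SE 0.12, adjusted p = 4.8e-10). Its mean was below log2 5, a dim signal, in all 5 iMOP groups and in none of the mESC groups, and *Orc1* was the other gene that was dim in any group. *Ccne1*, cyclin E1, read 7.45, 7.99 and 7.80 in UT iMOP cells and 10.03, 9.78 and 9.76 in UT mESCs, 4.32-fold lower in iMOP cells (adjusted p = 1.1e-06). *Ccnd1* was 2.81-fold and *Ccnd3* 2.34-fold lower, whereas the third D-type cyclin, *Ccnd2*, differed by 0.13 (95% interval −0.17 to 0.42). *Cdc25a*, the phosphatase that activates Cdk2, was lower by 0.74 and *E2f1* by 0.51. *Rb1*, the retinoblastoma repressor, was lower by 0.66 (adjusted p = 0.028), and that call was lost in 7 of 13 alternative settings. The second *Rb1* cluster, dim with a mean of 3.05 over all arrays, had −0.87 (limma adjusted p = 7.3e-05). *Rbl1*, a relative of *Rb1*, had −0.36 (adjusted p = 0.053).

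In the G2/M and mitotic class, *Cdc20*, which activates the anaphase-promoting complex, read 8.54, 8.77 and 9.06 in UT iMOP cells and 10.70, 10.68 and 10.61 in UT mESCs (log2 fold change −1.88, SE 0.15, adjusted p = 1.5e-06). *Ccnb2*, cyclin B2, read 8.77, 8.81 and 8.56 in UT iMOP cells and 10.36, 10.16 and 10.17 in UT mESCs (−1.52, SE 0.13, adjusted p = 2.7e-06). Neither gene's groups overlapped. The spindle checkpoint kinase *Bub1* (−1.46), *Cdk1*, the mitotic kinase itself (−1.33), *Bub1b* (−0.99), *Aurka* (−0.91) and *Ttk*, a further checkpoint kinase (−0.64), were lower as well. The mitotic kinase *Plk1* had −0.53, *Ccna2* −0.45 and *Foxm1*, a factor that drives mitotic genes, −0.45. Against this direction, *Mki67*, the proliferation antigen Ki-67, read 10.24, 10.07 and 10.07 in UT iMOP cells and 9.29, 9.35 and 9.60 in UT mESCs, higher by 0.71 (adjusted p = 0.00086). *Aurkb*, the kinase of the chromosomal passenger complex, was higher by 0.40 (adjusted p = 0.024), a call lost when any 1 of 4 arrays (replicate 2 or 3 of either UT group) was left out. *Cdk2*, *E2f2*, *E2f3* and *Cdk4* had 0.21, 0.15, −0.15 and −0.22 and were not called either, and *Top2a*, *Cdc25c* and *Cdc25b* had 0.13, 0.05 and −0.27 with adjusted p of 0.55, 0.76 and 0.10.

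The scaling of the arrays bore on the weaker calls. When all 30 arrays were quantile normalized, the median of all clusters was 0.01 in place of −0.20, and 20 cell cycle genes were lower and 7 higher, beside 27.2% and 28% of all clusters. The S-phase genes then had 8 lower and 1 higher, and the mitotic genes 6 lower and 4 higher. The genes whose lower call was lost were *Ccna2*, *Cdc25a*, *Cdc6*, *E2f1*, *Foxm1*, *Mcm10*, *Mcm3*, *Mcm6*, *Plk1*, *Rb1* and *Ttk*, each still negative. Of the 27 calls after this step, 22 had also been made, in the same direction, on the deposited values. The new calls were all higher in iMOP cells. They included 1 each among the G1 cyclins and kinases, the G1/S regulators and the S-phase genes, classes with no higher call before. The counts that follow are again from the deposited values, without quantile normalization. Among genes of the same processes outside the set of 45, 30 of 43 measured replication genes were lower and 5 higher (median −0.71). Of 37 measured mitotic genes, 19 were lower and 6 higher (median −0.34). Over all clusters 39.2% were lower and 18.3% higher (median −0.20).

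**Figure D2:**
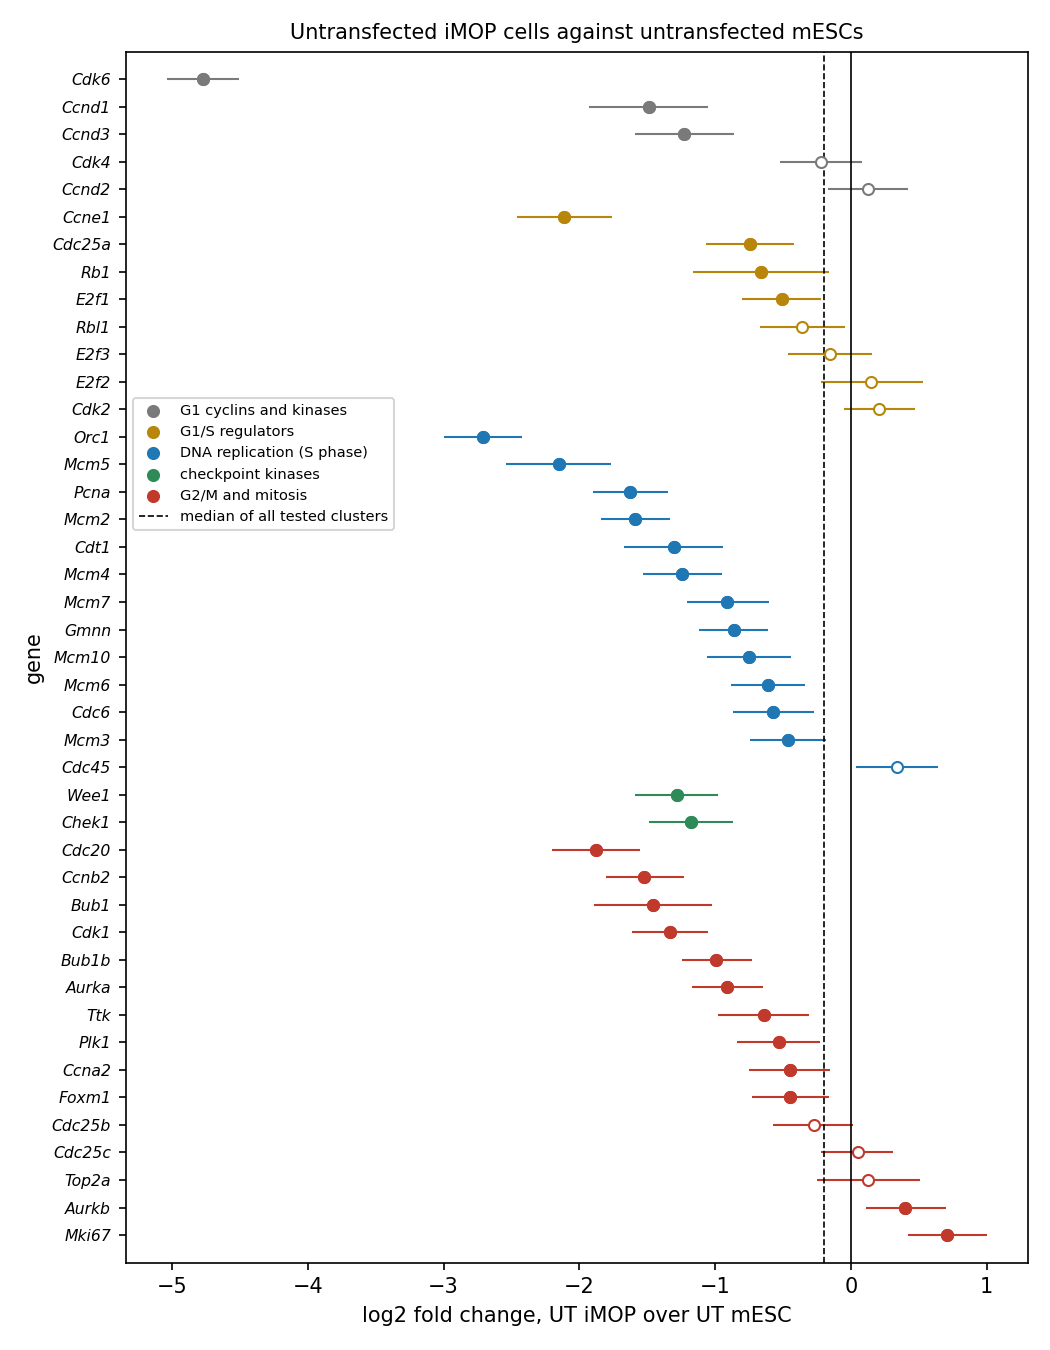
Points give the log2 fold change of UT iMOP cells over UT mESCs for each gene and lines its 95% interval; filled points passed the threshold, colors mark the classes, and the dashed line is the median of all tested clusters, −0.20. The S-phase genes lie to the left from −2.71 (*Orc1*) to −0.46 (*Mcm3*) except *Cdc45* at 0.34, and the mitotic genes reach from −1.88 (*Cdc20*) to 0.71 (*Mki67*).

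The promoters of the genes that carried this comparison are shown because S-phase and mitotic genes are known to be driven through different elements. RefSeq windows of 300 bases, from 250 before to 50 after the annotated start on GRCm38.p6, were at hand for 34 of the 45 genes (38 windows). E2F cores on either strand (TTCCCGC and TTGGCGC, with the variants TTCGCGC and TTGCCGC) were in 8 of 12 S-phase windows, 3 of 12 mitotic windows and 9.57% of all 32851 windows. The CHR element (TTTGAA or the palindrome TTCGAA), a site of mitotic promoters, was in 3 of 12 S-phase windows, 11 of 12 mitotic windows and 19.2% of all windows. The CCAAT box was in 10 of 12, 12 of 12 and 37.4%, in the same order. In the 3 sequences that follow, capitals mark E2F cores in *Orc1* and *Mcm5* and CHR elements and CCAAT boxes in *Cdc20*. *Orc1* (chr4:108579204-108579503, plus strand) held 1 E2F core, *Mcm5* (chr8:75109259-75109558, plus strand) 3, of which a pair overlapped, and *Cdc20* (chr4:118437294-118437593, minus strand, printed 5′ to 3′ along the gene) 1 CHR element between 2 CCAAT boxes.
Orc1: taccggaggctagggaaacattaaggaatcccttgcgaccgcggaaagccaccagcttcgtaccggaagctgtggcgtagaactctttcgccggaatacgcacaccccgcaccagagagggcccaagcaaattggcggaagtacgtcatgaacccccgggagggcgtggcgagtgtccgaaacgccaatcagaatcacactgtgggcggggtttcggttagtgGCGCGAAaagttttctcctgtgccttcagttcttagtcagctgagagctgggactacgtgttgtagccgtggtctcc
Mcm5: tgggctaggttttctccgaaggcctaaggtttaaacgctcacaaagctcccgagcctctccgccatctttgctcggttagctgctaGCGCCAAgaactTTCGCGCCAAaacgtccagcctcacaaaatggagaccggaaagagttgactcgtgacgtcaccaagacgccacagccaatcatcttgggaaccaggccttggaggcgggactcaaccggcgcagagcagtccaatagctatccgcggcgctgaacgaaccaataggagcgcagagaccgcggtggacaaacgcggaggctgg
Cdc20: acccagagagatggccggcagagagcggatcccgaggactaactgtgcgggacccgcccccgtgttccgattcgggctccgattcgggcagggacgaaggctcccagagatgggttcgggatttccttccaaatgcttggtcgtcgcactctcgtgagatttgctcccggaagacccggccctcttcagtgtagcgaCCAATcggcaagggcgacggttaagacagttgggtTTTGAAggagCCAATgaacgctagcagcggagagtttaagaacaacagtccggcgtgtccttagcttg

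The second comparison, pT against UT within each line, measures the control vector, the reagent and the sort together. In iMOP cells 18 of the 43 genes were lower and 7 higher in pT cells, beside 21.9% and 19.4% of all tested clusters (41.3% together), and the medians were −0.32 over the cell cycle genes and 0.09 over all clusters. The pT and UT arrays did not overlap for 28 genes, beside 50.8% of all clusters. After quantile normalization 16 were lower and 11 higher, beside 18.8% and 23.4%. With the methods' t-test and adjustment 6 were lower (*Bub1b*, *Cdc25c*, *Chek1*, *Rbl1*, *Ttk* and *Wee1*) and 1 higher (*Ccnd3*). These were 7 of the 43 genes, beside 4356 of all 25341 clusters, so under that test the set did not stand out by count. In the limma fit of the deposited values, the mitotic class had 7 of 15 lower and 2 higher, and the S-phase class 4 of 13 lower and 2 higher. In that fit 26 of 37 mitotic genes outside the set were lower and 1 higher (median −0.81). Of the replication genes outside it, 22 of 43 were lower and 6 higher (median −0.40).

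*Top2a*, the topoisomerase that untangles chromosomes for mitosis, read 8.90, 7.79 and 8.79 in iMOP pT cells and 10.49, 10.23 and 9.92 in iMOP UT cells. It was 3.29-fold lower (log2 fold change −1.72, SE 0.23, limma adjusted p = 1.6e-05), and every pT array lay below every UT array. *Bub1* read 7.0, 5.92 and 7.03 in pT and 8.15, 8.10 and 8.10 in UT cells (−1.46, adjusted p = 0.00016). *Mki67* read 9.07, 8.12 and 9.48 in pT and 10.24, 10.07 and 10.07 in UT cells (−1.24, adjusted p = 0.0004). In these 3 genes the second pT array was about a log2 unit below the other 2, and without that array 7 genes were higher and 16 lower in all. *Ttk* (−1.23), *Ccnb2* (−0.87), *Cdc25c*, a phosphatase of Cdk1 (−0.78), and *Bub1b* (−0.66) were lower as well. Against them, *Cdc20* was higher by 0.58 and *Plk1* by 0.56 (adjusted p = 0.0047 and 0.0076).

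*Chek1* read 6.52, 6.09 and 6.40 in iMOP pT cells and 7.73, 7.81 and 7.61 in iMOP UT cells, 2.61-fold lower (adjusted p = 2.8e-06). *Wee1* was lower by 0.99 (adjusted p = 0.00053). Among the pocket proteins, *Rbl1*, p107, read 6.0, 5.47 and 5.93 in pT and 7.30, 7.28 and 7.08 in UT cells (−1.42, adjusted p = 5.8e-06). *Rb1* read 6.12, 3.85 and 5.52 in pT and 7.12, 6.86 and 6.67 in UT cells (−1.72, SE 0.40, adjusted p = 0.0018). Its second cluster, with a mean of 3.05 over all arrays, had 0.34 (adjusted p = 0.095), so the *Rb1* probes disagreed in sign in iMOP cells, and without the second pT array the used cluster had −1.06 (adjusted p = 0.0068). *Ccnd2* was lower by 1.25 while *Ccnd3* was higher by 0.95, and *E2f1* and *E2f2*, activators of S-phase genes, were higher by 0.96 and 0.69 while *E2f3* was lower by 0.87. The helicase divided in the same way: *Mcm4* (−1.0), *Mcm6* (−0.68) and *Mcm3* (−0.44) were lower and *Mcm5* (0.70) higher, as was *Cdt1* (0.70), whereas *Mcm2* had 0.00 (95% interval −0.28 to 0.28). *Cdk2* (−0.48), *Orc1* (−0.46) and *Mcm3* lost the limma call without 1 array, in 3, 3 and 4 of 6 cases. Span in the genome moved with this response: the RefSeq span had a median of 10.5 kb over the 7 higher genes, 27.6 kb over the 18 lower and 12.5 kb over the 18 that were not called, and over all single-symbol clusters the medians were 9.14, 38.5 and 13.8 kb. Over all single-symbol clusters, mESC pT against UT ran the other way. The medians there were 29.5 kb (higher), 10.5 kb (lower) and 15.9 kb (not called). The part of span in either line's response was not tested.

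The other transfected iMOP groups had been through the same steps. All 12 transfected iMOP arrays lay below the 3 UT arrays for 15 of 43 genes (19.6% of all clusters) and above them for 3 (15.1%). The 15 were *Ccnd2*, *Cdk2*, *Rbl1*, *Mcm4*, *Mcm6*, *Chek1*, *Wee1*, *Ccnb2*, *Cdc25c*, *Aurkb*, *Bub1*, *Bub1b*, *Ttk*, *Top2a* and *Mki67*, and the 3 were *Ccnd3*, *E2f1* and *Cdt1*. *Chek1*, for example, ran from 6.09 to 6.62 over the 12 and from 7.61 to 7.81 in UT cells. Mitotic genes made up 8 of the 15 and S-phase genes 2.

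In mESCs few of these genes passed in the same comparison. Of 43, 2 were higher and 2 lower in pT cells, beside 7.07% and 6.07% of all tested clusters (13.1% together), and the median was 0.05 over these genes and −0.02 over all clusters. *Ccnd2* read 6.26, 6.38 and 6.31 in mESC pT cells and 7.08, 7.13 and 7.12 in mESC UT cells (log2 fold change −0.79, SE 0.14, limma adjusted p = 0.00095), with the groups well apart. *Ccne1* was lower by 0.48 (adjusted p = 0.0058). *Rb1* read 8.83, 8.94 and 8.48 in pT and 6.97, 7.86 and 7.80 in UT cells, higher by 1.21 (adjusted p = 0.001), and its second cluster had 0.85 (adjusted p = 0.15). *Mki67* was higher by 0.38 (adjusted p = 0.028), a call lost in 8 of 14 alternative settings. For 40 of the 42 genes other than *Cdc25b* the 95% interval lay within 1 log2 unit of 0. All 12 transfected mESC arrays lay below the 3 UT arrays for *Cdk4*, *Ccne1* and *Cdk2* (5.95% of all clusters) and above them for *Rb1*, *Cdc25c* and *Mki67* (7.46%).

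The response itself differed between the lines. For 21 genes the iMOP response minus the mESC response passed the threshold in a fit to all 30 arrays, 15 below 0 and 6 above, beside 20% and 15.6% of all clusters (35.6% together). In the mitotic class 7 of 15 passed the threshold below 0 and 0 passed above it, and by sign alone 12 were below 0 and 3 above. *Mki67* was lower in iMOP pT and higher in mESC pT cells, a difference of −1.62 (SE 0.28, adjusted p = 4.8e-05). *Rb1* had a difference of −2.93 (SE 0.49, adjusted p = 3.4e-05) on the cluster used, −2.27 there without iMOP pT replicate 2, and −0.51 on its second cluster (adjusted p = 0.34). *Bub1* and *Top2a* had −1.66 each. *Ccnd3* (1.09), *E2f2* (0.96), *Ccne1* (0.91), *E2f1* (0.78), *Mcm5* (0.66) and *Cdt1* (0.58) were the 6 above 0. The call was lost for *Mcm5* without iMOP UT replicate 1 and for *Cdt1*, *E2f3* and *Mcm3* without any 1 of 3 to 4 arrays. *Ccnd2*, lower in pT cells of both lines, had −0.46 (95% interval −1.0 to 0.09, adjusted p = 0.19). The pluripotency marker mean was 8.37 to 8.57 in mESC pT and 8.83 to 8.85 in mESC UT cells, and the neuron marker mean 5.57 to 5.66 in mESC pT and 5.79 to 5.83 in mESC UT cells. In iMOP cells the neuron marker mean was 5.54 to 5.91 in pT and 5.94 to 6.04 in UT cells. The fibroblast marker mean was 5.02 to 5.14 in iMOP pT and 4.87 to 4.97 in iMOP UT cells. In mESCs it was 5.19 to 5.25 in pT and 5.17 to 5.22 in UT cells. Single markers moved both ways within a list. Their log2 fold changes ran from −1.57 to 1.24 for fibroblast markers in mESCs and from −1.49 to 1.29 for neuron markers in iMOP cells. The part of the markers in these responses was not tested.

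**Figure D3:**
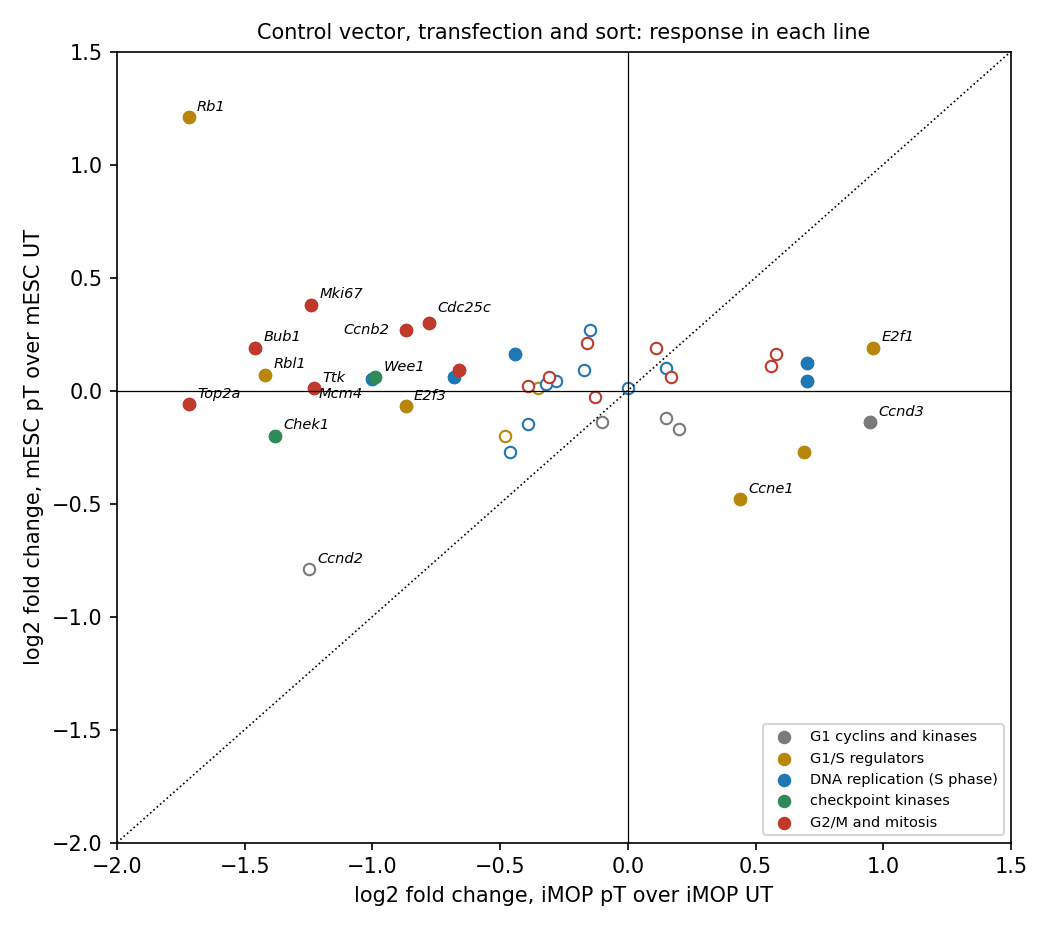
Each point is a gene, with the log2 fold change of pT over UT in iMOP cells on the horizontal axis and in mESCs on the vertical axis; colors mark the classes, filled points had a line difference past the threshold, and the dotted line marks equal responses. The points spread from −1.72 to 0.96 along the iMOP axis, while along the mESC axis *Rb1* (1.21) and *Ccnd2* (−0.79) lie farthest from 0.

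The third set of comparisons asks what Atoh1 did to these genes, and in it 1 gene stood out. *Cdc25b* (cluster 17376446), a phosphatase that activates Cdk1 at the entry into mitosis, was higher in mESCs that received Atoh1. It was already among the genes the study named from these samples, so its level here is not an independent finding. *Cdc25b* read 8.85, 8.99 and 8.88 in mESC pAT cells and 7.44, 7.24 and 7.13 in mESC pT cells. It read 8.97, 8.98 and 8.86 in mESC p183AT cells and 7.10, 7.32 and 7.25 in mESC p183T cells, which are separate arrays. In both cases the Atoh1 arrays lay more than a log2 unit above the others. The log2 fold change was 1.63 for pAT against pT (SE 0.11, limma adjusted p = 1.5e-06), 1.71 for p183AT against p183T (SE 0.11, adjusted p = 5.1e-07) and 1.67 for p183AT against pT, which shares arrays with the others. With the methods' t-test and adjustment these 3 calls were lost at the same fold (adjusted p = 0.081, 0.11 and 0.13). UT mESCs read 7.14, 7.08 and 7.02.

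In iMOP cells *Cdc25b* read 7.70, 7.58 and 7.88 in pAT and 6.86, 6.78 and 7.11 in pT cells. All pAT arrays were higher, yet the log2 fold change of 0.80 (SE 0.15) missed the threshold in the 15-array fit (adjusted p = 0.10). With all 30 arrays in 1 fit its adjusted p was 0.0032. It read 7.96, 7.67 and 8.06 in iMOP p183AT and 6.87, 6.68 and 7.0 in iMOP p183T cells, higher by 1.05 (SE 0.15, adjusted p = 0.0076). Against iMOP pT the p183AT cells were higher by 0.98 (adjusted p = 0.0091). Both iMOP calls were lost with only the 6 compared arrays fitted (adjusted p = 0.08 and 0.30). Both also missed the threshold without p183AT replicate 3 (0.051 and 0.062), and the first without p183T replicate 2 (0.064). With the methods' t-test their adjusted p was 0.84 and 0.99. iMOP UT cells read 6.87, 6.95 and 6.60. The difference between the lines in the pAT response was −0.83 (SE 0.19, adjusted p = 0.038), a call lost in 10 of 18 alternative settings, and in the p183AT response −0.69 (adjusted p = 0.13). Where the vectors differed only in the miR-183 family, the *Cdc25b* differences were small: p183T against pT gave −0.05 in mESCs and −0.07 in iMOP cells, and p183AT against pAT 0.03 and 0.18, with adjusted p of 1 in all 4. Against UT, pT gave 0.19 in mESCs (adjusted p = 0.30) and 0.11 in iMOP cells (0.60), where quantile normalization made it 0.40 (0.037).

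The *Cdc25b* promoter window (chr2:131186698-131186997 on GRCm38.p6, plus strand, from RefSeq) is shown as that of the Atoh1 responder. Atoh1 binds E-boxes, here searched as CAGATG and CAGCTG on either strand. The window held 1 E-box (CAGCTG, a palindrome), 1 CHR element (TTCGAA) and 1 CCAAT box on the opposite strand, all in capitals. E-boxes were in 2 of the 12 mitotic windows, 8 of the 38 windows of the set and 30.6% of all windows, so a match is a description and no site.
Cdc25b: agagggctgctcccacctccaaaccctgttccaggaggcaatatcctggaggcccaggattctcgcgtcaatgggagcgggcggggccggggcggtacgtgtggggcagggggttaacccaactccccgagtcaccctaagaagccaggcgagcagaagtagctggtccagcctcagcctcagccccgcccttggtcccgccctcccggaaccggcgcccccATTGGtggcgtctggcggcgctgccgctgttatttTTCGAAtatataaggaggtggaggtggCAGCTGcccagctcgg

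**Figure D4:**
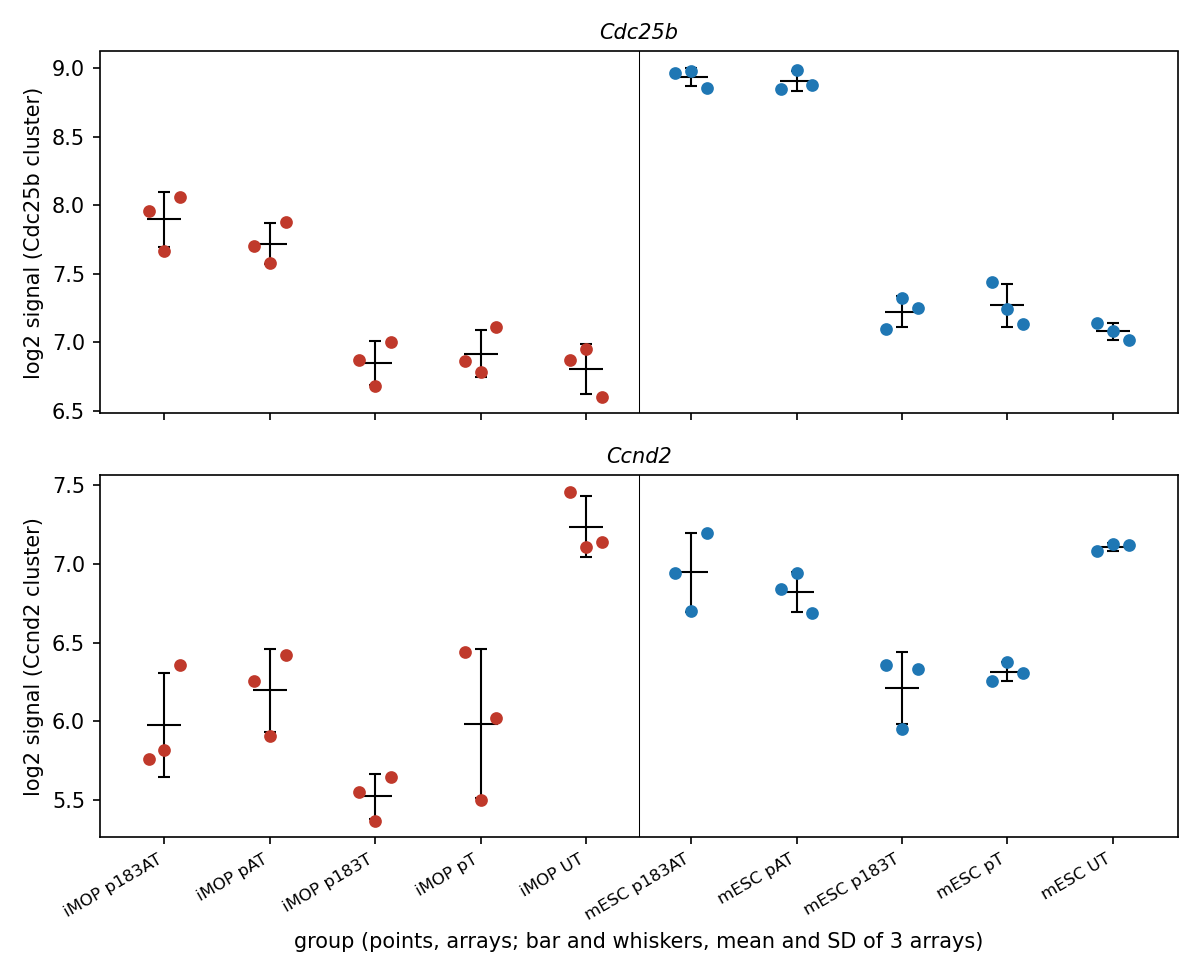
Points are the log2 signals of single arrays for *Cdc25b* (top) and *Ccnd2* (bottom) in the 10 groups, with the mean and SD of 3 arrays; iMOP groups are red and mESC groups blue. *Cdc25b* lies between 8.85 and 8.99 on the 6 mESC arrays with Atoh1 and between 7.02 and 7.44 on the other 9, and *Ccnd2* lies between 6.26 and 6.38 in mESC pT cells and between 7.08 and 7.13 in mESC UT cells.

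*Ccnd2*, cyclin D2, was the other gene that passed in an Atoh1 comparison. It read 6.94, 6.70 and 7.20 in mESC p183AT cells and 6.36, 5.95 and 6.33 in mESC p183T cells, higher by 0.73 (SE 0.14, limma adjusted p = 0.013), and without p183AT replicate 3 or p183T replicate 2 *Cdc25b* alone passed. Against mESC pT cells, at 6.26, 6.38 and 6.31, the p183AT cells were higher by 0.63 (adjusted p = 0.038), a call lost in 9 of 14 alternative settings. In mESC pAT cells it read 6.84, 6.94 and 6.69, above every pT array, with a log2 fold change of 0.51 (adjusted p = 0.14). UT mESCs ranged from 7.08 to 7.13, with a mean of 7.11. The *Ccnd2* means in mESC pAT and p183AT cells, 6.82 and 6.94, thus lay between those of pT (6.32) and UT cells. In iMOP cells *Ccnd2* had 0.21 in pAT against pT, 0.46 in p183AT against p183T and −0.01 in p183AT against pT, and none of these was called. The pluripotency marker mean lay between 8.07 and 8.18 in mESC pAT and p183AT cells and between 8.37 and 8.57 in mESC p183T and pT cells, and its part in these results was not tested.

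The rest of the set showed no call. In mESC pAT against pT, 1 of 43 genes passed (0.797% of all clusters), and the S-phase genes had 12 of 13 log2 fold changes below 0, all small (median −0.09, lowest −0.25 for *Gmnn*). The median over all clusters was 0.01. Of the 43 other replication genes, 36 were below 0 (median −0.06) and 0 passed. In p183AT against p183T, which uses other arrays, 8 of the 13 and 32 of the 43 were below 0 (medians −0.02 and −0.11), and 2 of the set passed (1.16%). In mESC p183AT against pT 2 passed (1.05%), and *Mcm10* and *Mcm7* were lowest at −0.24 and −0.22. *Cdc25a* was second lowest in pAT against pT (−0.21) and lowest in p183AT against p183T (−0.37, adjusted p = 0.31), followed there by *Mcm10* (−0.32). For all 42 genes other than *Cdc25b* the 95% interval in pAT against pT lay within 1 log2 unit of 0.

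In iMOP cells 0 of 43 genes passed in pAT against pT (limma), beside 0.0197% of all clusters. At an unadjusted p below 0.05 there were 3, beside 6.69% of all clusters. The methods' t-test gave 0 after adjustment. The methods' own rule was a change of at least 1.5-fold at an unadjusted p below 0.05. Under it 1 gene passed, *Cdc25b*, beside 138 of all 25341 clusters. *Rb1* (0.98, SE 0.40, adjusted p = 0.65) was the highest, its pAT arrays at 6.61, 6.19 and 5.62 and its pT arrays at 6.12, 3.85 and 5.52, which overlapped. *Gmnn* (−0.29) and *Cdc25c* (−0.21) were the lowest. *Cdc25b* was the 1 gene that passed in p183AT against p183T (0.0829%) and against pT (0.138%). In the first of these *Rb1* had 0.94 and *Pcna* −0.16 and *Cdc25a* −0.15 were the lowest, and in the second *Rb1* had 1.4 (adjusted p = 0.42) on this cluster and −0.30 on its other cluster, with *Mcm5* (−0.36) and *Ccnd3* (−0.28) the lowest. Of the 15 mitotic genes 14, *Cdc25b* among them, were above 0 in p183AT against p183T (median 0.11, beside −0.01 over all clusters). Of the 37 measured mitotic genes outside the set, 24 were above 0. The genes were read on the same arrays, so their signs are not independent counts. Above 0 were 8 of the 15 in p183AT against pT (median 0.01) and 10 in pAT against pT (median 0.05). In p183T against pT, without Atoh1, 12 of the 15 were below 0 (median −0.07).

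The miR-183 family was also compared alone. In p183T against pT 0 of 43 passed in either line, beside 0.0118% of all clusters in each, and the methods' t-test gave 0. At an unadjusted p below 0.05 there were 0 in mESCs and 1 in iMOP cells, beside 2.33% and 3.87% of all clusters. The extremes were *Ccnd3* and *Rb1* (−0.24 each) and *Cdk1* and *Cdc25a* (0.20 each) in mESCs, and *Ccnd2* (−0.46), *Mcm5* (−0.30), *Cdk6* (0.19) and *Rb1* (0.46) in iMOP cells. In p183AT against pAT 0 passed in either line (0.0118% in each). At an unadjusted p below 0.05 there were 0 in both, beside 4.87% of all clusters in mESCs and 3.99% in iMOP cells. *Mcm10* (−0.14), *Mcm7* (−0.13), *Cdk6* (0.13) and *Gmnn* (0.31) were the extremes in mESCs, and *Cdc25a* (−0.38), *Ccne1* (−0.27), *Ttk* (0.33) and *Rb1* (0.42) in iMOP cells. The line difference passed for 0 genes in p183T and in p183AT against pT, beside 0% and 0.32% of all clusters, and for *Cdc25b* alone in pAT against pT (0.312%). At an unadjusted p below 0.05 these had 0, 3 and 1 genes, beside 2.9%, 8.16% and 7.49% of all clusters.

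**Figure D5:**
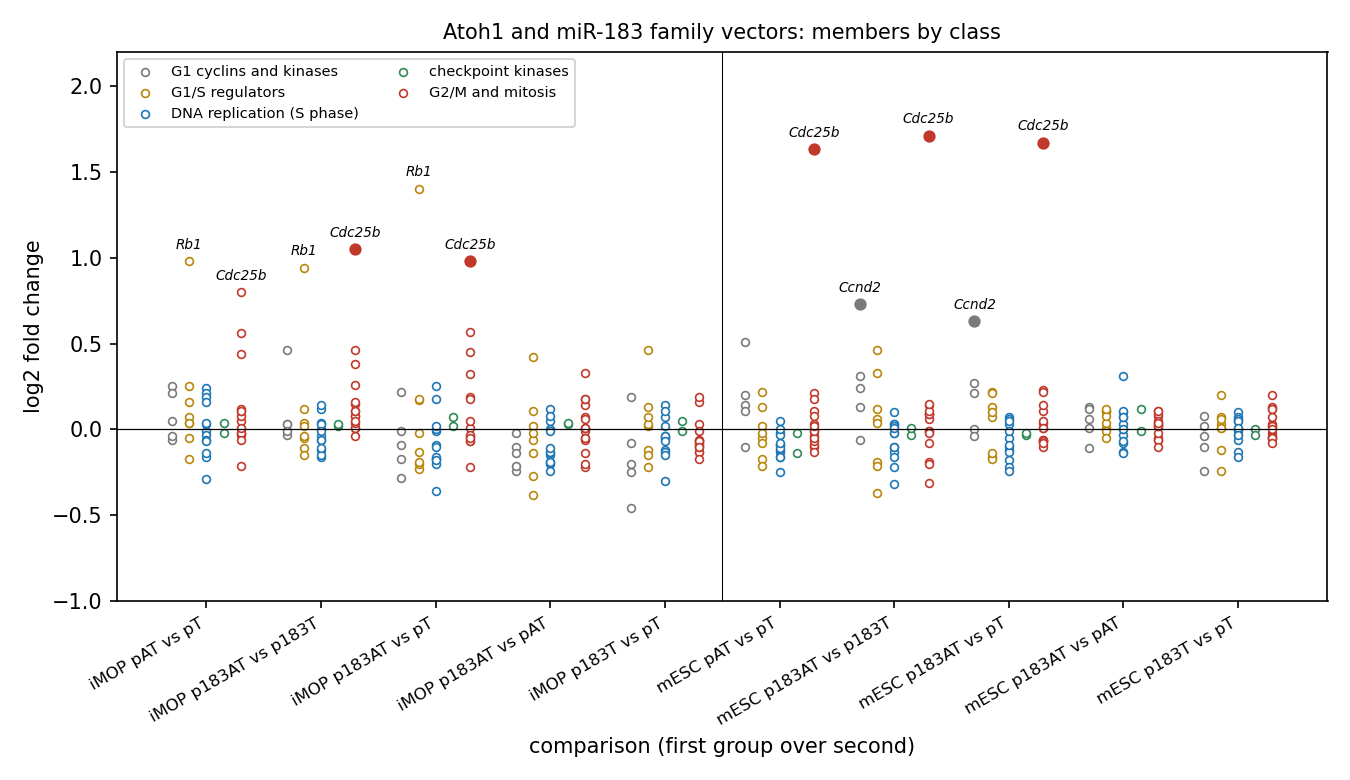
Each point is the log2 fold change of 1 gene in 1 comparison, first group over second, with iMOP comparisons left of mESC comparisons, colors for the classes and filled points past the threshold. *Cdc25b* stands at 1.63, 1.71 and 1.67 in the mESC comparisons with Atoh1 added and at 0.80, 1.05 and 0.98 in the iMOP ones, and *Rb1* at up to 1.4 in iMOP cells is not called.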

How the data were processed

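Expression in 30 mouse samples (10 groups of 3) was measured on Affymetrix Gene 2.0 ST arrays. The authors normalized the arrays with Expression Console (version 1.4.1.46), and the deposited values are log2 RMA signals per transcript cluster. RMA makes array distributions more alike and compresses low signals, so folds of dim clusters (mean below log2 5) are likely understated. The deposited distributions were still not equal, with array medians from 4.37 to 4.69. The sources read here do not state whether both lines entered 1 normalization. Columns were matched to groups by their labels, 0 were left unmatched, and gene names came from the platform annotation.

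With limma 3.58.1 (lmFit, eBayes, R 4.3.3), UT iMOP was set against UT mESC on 6 arrays, vectors were compared within a line on its 15 arrays, and line differences (iMOP minus mESC) were fitted on 30. P-values were adjusted by Benjamini-Hochberg over 25341 clusters with a symbol and called below 0.05. The methods' one-way test, run as a t-test with the same adjustment, was an alternative. The study states no adjustment for its own p-value limit. Other array sets, scalings and filters were alternatives too (left out as dim: under log2 6 on all but 2 arrays). The fit was tested on simulated data first. Precision is limited by 3 arrays per group.

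The genes and lists were chosen with earlier results of these data known. Named genes were *Cdc25b* in every comparison, the called genes (up to 30), the 2 highest and 2 lowest where fewer than 4 were called, and the highest and lowest of each class. The other lists held 83 replication and mitotic genes.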

Additional observations from a re-analysis of the deposited data

Results flagged for a closer look

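The response to pT (vector, reagent and sort together) differed between the lines for 21 genes by a limma test of the difference itself, given here as the iMOP log2 fold change minus the mESC one. Below 0 were *Rb1* (−2.93), *Bub1* (−1.66), *Top2a* (−1.66), *Mki67* (−1.62), *Rbl1* (−1.49), *Ttk* (−1.24), *Chek1* (−1.18), *Ccnb2* (−1.15), *Cdc25c* (−1.08), *Mcm4* (−1.05), *Wee1* (−1.05), *E2f3* (−0.80), *Bub1b* (−0.75), *Mcm6* (−0.74) and *Mcm3* (−0.60). Above 0 were *Ccnd3* (1.09), *E2f2* (0.96), *Ccne1* (0.91), *E2f1* (0.78), *Mcm5* (0.66) and *Cdt1* (0.58). The *Rb1* difference was −2.27 without iMOP pT replicate 2 and −0.51 on its second cluster, which was not called (adjusted p = 0.34). The response to pAT differed for *Cdc25b* (−0.83, adjusted p = 0.038), a call lost in 8 of 12 fits without 1 array, with only the compared arrays (0.18) and after quantile normalization (0.067). The p183AT response of *Cdc25b* had −0.69 and was not called (0.13). The lines also differed in reagent and in how sorted cells were collected, which cannot be told apart from the line.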

How the results depend on the processing

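The count of called genes moved by more than 1.5 times in the following cases. With the methods' t-test and adjustment it was 2 in mESC pT against UT, 0 in mESC pAT against pT, 0 in p183AT against pT and 0 in p183AT against p183T in mESCs and likewise 0 and 0 in iMOP cells, and 7 in iMOP pT against UT. With only the compared arrays fitted it was 1 in mESC p183AT against pT, 1 against p183T, 0 in both iMOP comparisons and 0 in the line difference for pAT. With all 30 arrays in 1 fit it was 1 in mESC p183AT against pT and 1 in iMOP pAT against pT, and with the replicate block 1 in mESC p183AT against pT. After quantile normalization the line difference for pAT had 0. The cause was not tested. No called gene changed direction in any setting.

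Leaving out each array in turn gave 30 to 34 genes in UT iMOP against UT mESC, 22 to 27 in iMOP pT against UT, 18 to 22 in its line difference, 3 to 4 in mESC pT against UT, 1 to 2 in both mESC p183AT comparisons, 0 to 1 in both iMOP ones and 0 to 1 in the line difference for pAT. For *Cdc25b*, the log2 fold change stayed between 1.57 and 1.76 in mESCs and between 0.72 and 1.16 in iMOP cells. Same-numbered samples correlated at −0.20 to 0.32 in iMOP cells and −0.19 to 0.29 in mESCs, and 11 of 15 iMOP and 4 of 15 mESC samples correlated best with samples of their own number, a hint from the data only. The block left 33 calls in the UT comparison and 25 in iMOP pT against UT. Signal limits *Cdk6* and *Orc1*, which were dim in iMOP cells.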
